A study of Gallus gallus with 24 samples.

Results

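The nuclear-encoded subunits of the respiratory chain and of ATP synthase were examined in chicken heart and liver, with and without salinomycin (Sal). Members were chosen by gene symbol alone. All symbols of the NDUFA, NDUFB, NDUFC, NDUFS and NDUFV series followed by a digit, SDHA to SDHD, the UQCR series, CYC1, the COX4I, COX5, COX6, COX7 and COX8 series, and ATP5F1, ATP5M and ATP5P were taken, as long as the gene lay off the mitochondrial genome. This gave 55 of the 15051 genes of the count table. None of them was CYC1 or a gene of the COX8 series. Complex I held 29 of them, complex II 3, complex III 8, complex IV 10 and ATP synthase (complex V) 5. NDUFA4 was counted with complex IV, of which it is a subunit.

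The birds were broiler chickens bought as females, and 6 Sal-exposed and 6 control birds were sampled, so that heart and liver gave 24 libraries. Sal, an ionophore fed against coccidia, was given at 10.5 mg/kg feed, estimated as 0.9 mg/kg body weight per day, from week 4 to sampling in week 5. Control birds were fed without it. All birds had Sal-free feed before week 4. Hearts and livers were homogenised in different ways before RNA extraction, which cannot be told apart from the tissue. In whole tissue, fewer cells of a type and less RNA per cell cannot be told apart either.

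Respiratory complexes sit in the inner mitochondrial membrane. Complexes I and II pass electrons from NADH and succinate to ubiquinone, complex III passes them to cytochrome c, and complex IV reduces oxygen. Complexes I, III and IV pump protons, and ATP synthase uses the resulting gradient to make ATP. All but complex II also contain subunits encoded by mitochondrial DNA, so that each of these enzymes draws on both genomes. Heart muscle is known for its dense mitochondria. Ionophores such as Sal carry monovalent cations across membranes.

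Some libraries stood apart. Total counts lay between 31.4 and 44.5 M per library. The share of counts on the mitochondrial genome was 38.6 to 47.9% in the control hearts and 40.7 to 49.5% in 4 Sal-exposed hearts, but 72.0% in Sal-exposed heart 1 and 79.6% in Sal-exposed heart 4 (two-sided exact permutation test of Sal-exposed against control, p = 0.0368, n = 6 and 6). In liver it was 5.21 to 26.5% in the controls and 6.92 to 10.9% in 5 Sal-exposed livers, with 30.4% in Sal-exposed liver 4 (exact permutation p = 0.299). Over 51 W-linked genes with a mean above 1 CPM (read counts relative to library size, scaled by TMM), the summed level was 105 CPM in Sal-exposed heart 3, against 915 to 1240 CPM in the other 11 hearts, and 123 CPM in Sal-exposed liver 3, against 581 to 942 CPM in the other 11 livers. In those libraries 42 and 41 of the 51 genes were below 0.5 CPM. Since the W chromosome is carried by hens, both libraries went against the stated sex of the birds. Cardiomyocyte markers summed to 29569 to 38801 CPM in control hearts and 36484 to 50422 CPM in Sal-exposed hearts, and to at most 316 CPM in any liver. In heart 10 of the 13 had a positive log2FC after Sal, with a median of 0.30. By edgeR 0 passed, 5 had an unadjusted p below 0.05 (17.2% of all genes) and 2 passed by DESeq2 (4.64%). Hepatocyte markers summed to 163236 to 318879 CPM in control livers and 125673 to 205296 CPM in Sal-exposed livers, and to at most 803 CPM in any heart. Their median log2FC in liver was -0.77, with 0 of 13 positive. Of the 13, 2 passed, lower (7.84% of all genes), and 8 had an unadjusted p below 0.05 (31.5%). In Sal-exposed hearts the sum was 304 to 543 CPM, against 264 to 803 CPM in controls, but the median log2FC of the 12 hepatocyte markers tested was 1.70. Of these, 3 were past the threshold and higher, ALB, AHSG and APOH (0.14% of all genes), and 10 had an unadjusted p below 0.05 (17.2%). ALB was at 17.3 to 68.5 CPM in Sal-exposed and 4.7 to 8.34 CPM in control hearts. Fibroblast markers summed to 1745 to 2645 CPM in Sal-exposed and 2440 to 3774 CPM in control hearts (0 of 8 passed by edgeR, 3 with an unadjusted p below 0.05, 3 by DESeq2), and 2 of 8 passed, lower, in liver (7.84% of all genes). Erythrocyte markers summed to 66.2 to 234 CPM in Sal-exposed and 173 to 658 CPM in control livers, where 2 of 4 passed, lower (7.84% of all genes). Cholangiocyte markers summed to 46.3 to 66.6 CPM in Sal-exposed and 76.9 to 106 CPM in control livers. Of these 4, 2 passed, lower (7.84% of all genes), and 1 had a positive log2FC. Of 8 leukocyte markers in liver, 1 passed higher and 1 lower (7.57 and 7.84% of all genes), and 4 passed by DESeq2 (20.4%). Of 8 endothelial and 5 smooth muscle markers, 1 each passed in liver, lower (7.84%). No atrial marker passed in liver, and none of these 4 lists had a marker passing in heart, by edgeR. Skeletal muscle and kidney or intestine markers reached at most 14.3 and 14.9 CPM in any library. The part of these differences in the results below was not tested, apart from the values given without the libraries concerned.

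**Figure D1:**
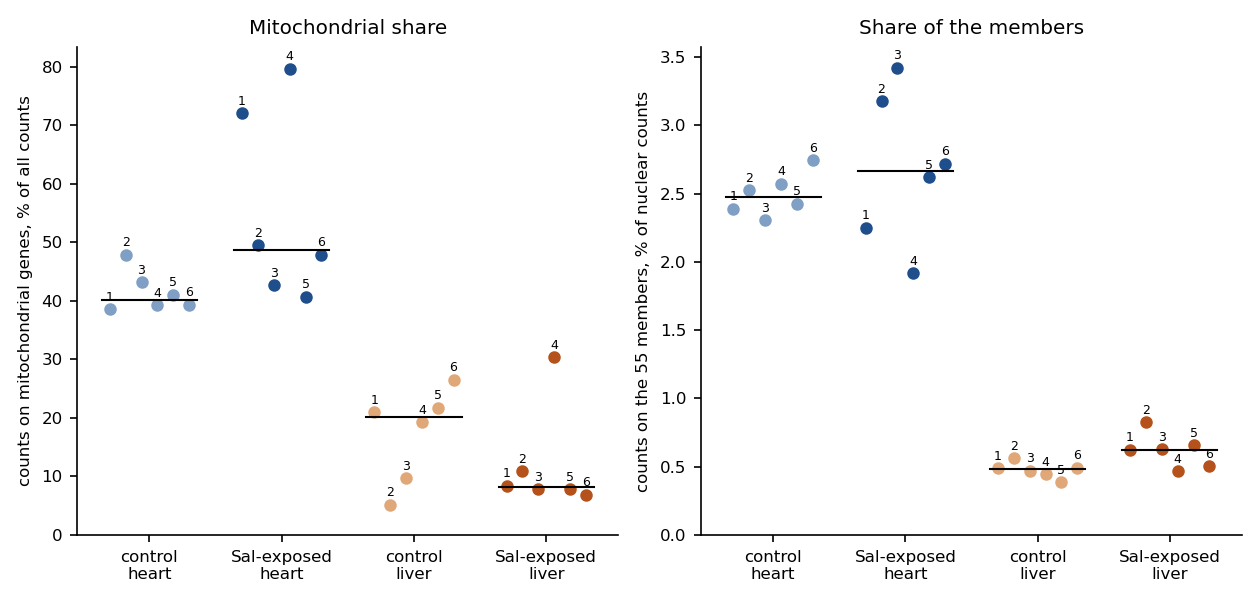
Share of all counts on mitochondrial genes (left, %) and share of nuclear counts on the 55 members (right, %) by library, with replicate numbers at the points and bars at the medians of 6. Sal-exposed hearts 1 and 4, at 72.0 and 79.6%, and Sal-exposed liver 4, at 30.4%, lie above the other libraries of their groups on the left, and the same 3 libraries are the lowest of their groups on the right.

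In normal birds, the question was how far the chain differs between the tissues. Nearly all members were higher in heart. Of the 55 members, 48 were higher in control heart than in control liver at p-adj of at most 0.05 and 0 were lower (edgeR quasi-likelihood test, Benjamini-Hochberg adjustment over 14121 genes). This is 87.3% of the members, where 35.9% of all genes tested were higher and 32.9% lower. Libraries were taken as independent in this fit, although the birds gave both tissues, since no label ties a heart to a liver. The median log2FC of the members was 1.19, against 0.06 for all genes. With a fold change of at least 2 as well (log2FC of at least 1), 36 members remained, or 65.5%, against 26.9% of all genes. In 44 members every control heart was above every control liver, which was so for 30.5% of all genes. These values rest on TMM scaling, with factors over the 24 libraries of 1.06 to 1.31 in control hearts and 0.713 to 1.17 in control livers. As a share of nuclear counts the members were at 2.49% in control hearts and 0.475% in control livers. Whether a small or negative log2FC keeps its sign when scaled to nuclear counts was not tested. Complex V had a median log2FC of 1.66 (5 of 5 passed), complex III 1.54 (8 of 8), complex II 1.39 (3 of 3), complex I 1.17 (25 of 29) and complex IV 0.92 (7 of 10). The 11 rows with older symbols of ATP synthase genes, which did not meet the symbol rule, had a median of 1.11. The place of complex V thus rests on the 5 rows chosen by symbol.

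Within complex I, the 7 core subunits, which hold the flavin, the iron-sulphur clusters and the ubiquinone site, had a median log2FC of 2.01 between heart and liver, and the 22 accessory subunits 1.15. NDUFS6, an accessory subunit needed late in assembly, had the largest value of all members. Its level was 129, 154 and 163 CPM (lowest, median and highest library) in control heart and 11.6, 13.3 and 29.5 CPM in control liver, a log2FC of 3.21 (SE 0.23, p-adj = 2.4e-08). The core subunits NDUFS1 and NDUFS7 followed within the complex, with log2FC of 2.31 (SE 0.16) and 2.25 (SE 0.17). At the other end, the core subunit NDUFS8 had a log2FC of 0.10 (SE 0.14, p-adj = 0.511), the accessory subunit NDUFA1 0.31 (SE 0.36, p-adj = 0.462) and NDUFV3, an accessory subunit of the NADH-oxidising arm, -0.28 (SE 0.21, p-adj = 0.247). NDUFV3 was thus the single member with a negative estimate on TMM scaling, and its groups overlapped.

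In complex II all 3 members were higher in heart. SDHA, the flavoprotein, had a log2FC of 2.16 (SE 0.14), SDHB, which carries the iron-sulphur clusters, 1.39 (SE 0.15), and the anchor SDHD 0.73 (SE 0.11), each past the threshold. The other anchor, SDHC, was found by position only, since its row has no symbol. On TMM scaling it was lower in heart, at 85.1 to 115 CPM against 57.6 to 207 CPM in liver (log2FC -0.67, SE 0.23, p-adj = 0.0197), although the groups overlapped. In complex III, the Rieske protein UQCRFS1 (2.59, SE 0.15), the core protein UQCRC1 (2.46, SE 0.24) and the small subunit UQCRQ (2.12, SE 0.19) were at the top. UQCRHL (0.79, SE 0.28, p-adj = 0.0213), UQCR10 (0.99, SE 0.22) and the core protein UQCRC2 (1.03, SE 0.15) were at the bottom.

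Complex IV had the smallest median difference between the tissues. COX4I1 (1.74, SE 0.16), COX5A (1.32, SE 0.19) and the Z-linked COX7C (1.27, SE 0.29) led. COX6C (0.78, p-adj = 0.0695), COX6A1 (0.62, SE 0.46, p-adj = 0.238) and NDUFA4 (0.51, SE 0.29, p-adj = 0.14) did not pass. In mammals several complex IV subunits come as isoform pairs, with a form of heart and skeletal muscle beside a form of other tissues. No gene with the symbol COX4I2, COX6A2, COX7A1, COX8B, COX8C or NDUFA4L2 was among the members, so that the comparison rests on COX4I1, COX6A1, COX7A2, COX7A2L and COX7B. COX7A2, the form of most tissues in mammals, was at 24.2, 25.5 and 29.3 CPM in control heart and 9.01, 13.4 and 18 CPM in control liver (log2FC 0.95, SE 0.17, p-adj = 0.000155). COX7A2L, known for its part in respiratory supercomplexes, was higher in heart by 0.88 (SE 0.10), and COX7B by 1.17 (SE 0.39, p-adj = 0.0163). COX8A, again matched by position, was lower in heart, at 10.7 to 20.2 CPM against 24.9 to 90 CPM in liver without overlap (log2FC -1.81, SE 0.32, p-adj = 0.000161). The third row matched by position, NDUFA11, an accessory subunit of complex I, was higher in heart, at 66.1 to 83 CPM against 9.05 to 44.3 CPM (1.5, SE 0.32, p-adj = 0.000794).

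In ATP synthase, ATP5MC1, a gene for the proton-carrying c subunit, was at 266, 298 and 332 CPM in control heart and 31.3, 35.4 and 56.3 CPM in control liver (log2FC 2.88, SE 0.17). ATP5F1AZ, the Z-linked copy of the alpha subunit, was higher in heart by 1.66 (SE 0.23). The stalk subunits ATP5PF, ATP5PO and ATP5PB were higher by 2.16 (SE 0.16), 1.23 (SE 0.14) and 0.97 (SE 0.14). Another 11 rows carry older symbols of ATP synthase genes and did not meet the symbol rule. They were looked up after the file was seen. All 11 had a positive log2FC in heart over liver, and 10 passed, higher (35.9% of all genes). Among the 10 was ATP5G3, the older name of ATP5MC3, with a log2FC of 1.18 (SE 0.21). The mirror of ATP5F1AZ on the W chromosome, ATP5A1W, is close enough in sequence that reads may have been split between them, and both values are uncertain for that reason.

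**Figure D2:**
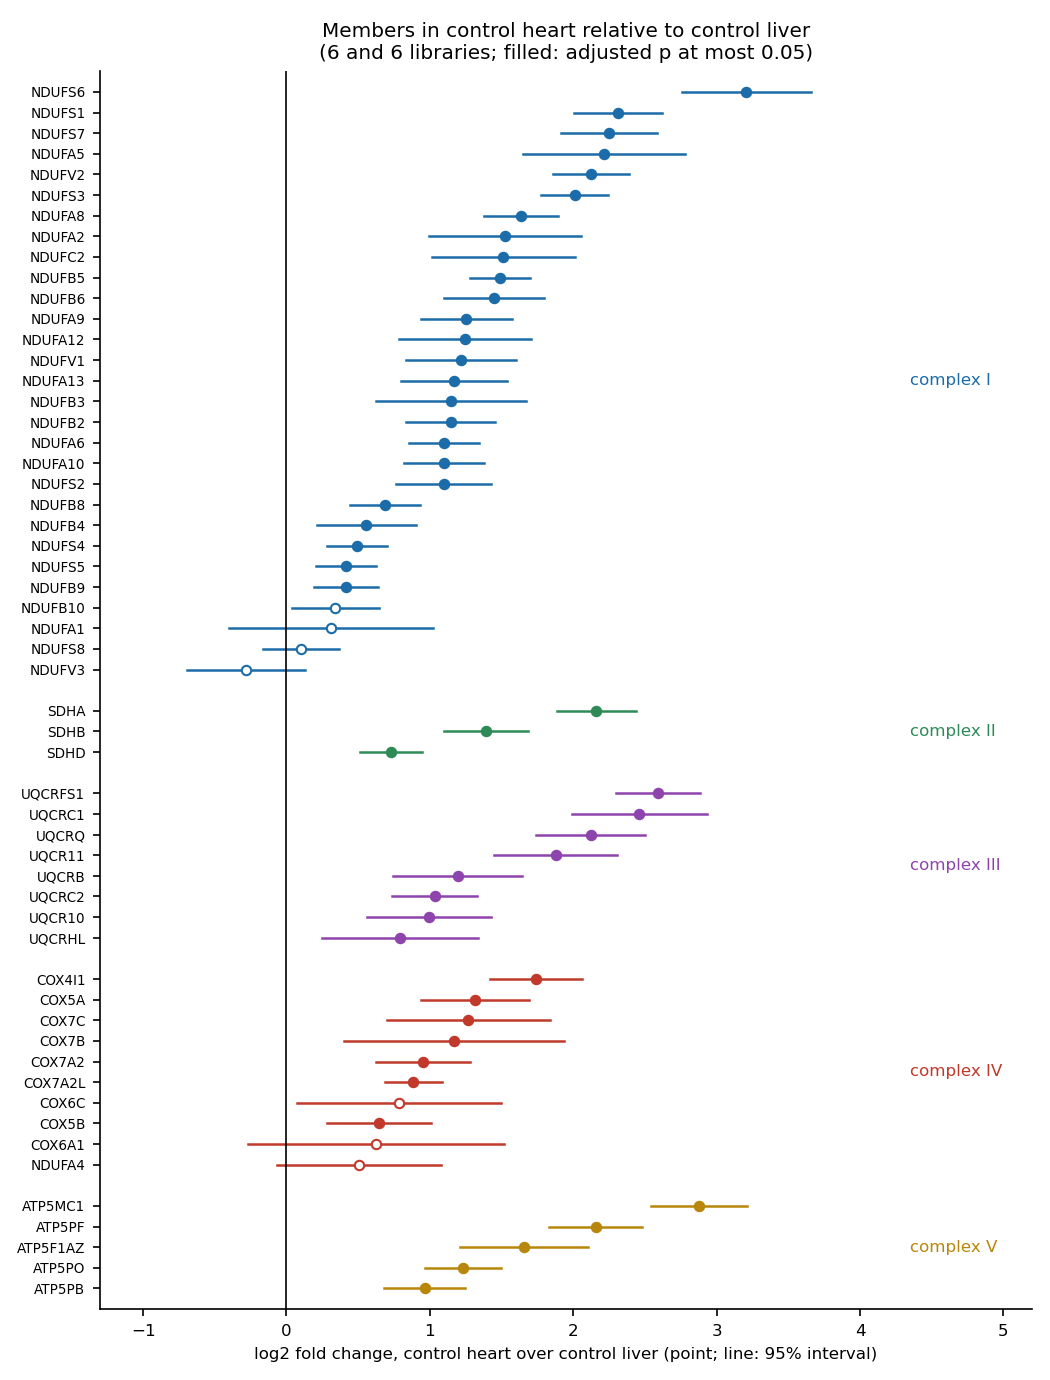
Log2 fold change of each member in control heart over control liver, by complex (point, with the 95% interval as a line, 6 and 6 libraries). Filled points passed at p-adj of at most 0.05, and 48 of 55 did, all to the right of 0, while NDUFV3 is the single point to the left.

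The next question was whether Sal altered the members in heart. In heart 0 of the 55 members passed at p-adj of at most 0.05 by edgeR, where 25 of 13526 genes, or 0.185%, did. At an unadjusted p below 0.05, 12 members were higher and 0 lower in Sal-exposed hearts (21.8% of members, against 10.1% of all genes higher and 7.1% lower). With DESeq2 5 members passed, all higher: COX5B, NDUFA12, NDUFA4, NDUFB4 and NDUFV3 (9.09%, against 3.4% of all genes). With surrogate variables, a correction named in the methods of the study, 12 passed by edgeR. Of these, 9 were higher (5.02% of all genes were), COX5B, NDUFA10, NDUFA12, NDUFA4, NDUFB10, NDUFB4, NDUFB8, NDUFV2 and SDHB, and 3 lower (4.08% of all genes), ATP5MC1, COX5A and NDUFC2. The fitted log2FC was positive in 45 of 55 members, or 81.8%, and in 47.8% of all genes, and the median was 0.18, against -0.02. By complex the medians were 0.22 for I, 0.30 for II, 0.16 for III, 0.10 for IV and 0.11 for V.

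Of all members, 4 had every Sal-exposed heart above every control heart: NDUFA4, NDUFA12, NDUFB4 and SDHD (7.27%, against 1.62% of all genes). NDUFA4 was at 325, 339 and 376 CPM in control hearts and 449, 585 and 1195 CPM in Sal-exposed hearts. All 6 exposed hearts were above the highest control, with Sal-exposed heart 2 far above the rest, and the log2FC was 0.97 (SE 0.22, p-adj = 0.077). NDUFA12, an accessory subunit of complex I, was at 108, 129 and 142 CPM in controls and 155, 191 and 296 CPM after Sal (log2FC 0.67, SE 0.16, p-adj = 0.0814). NDUFB4, an accessory subunit of the membrane arm, was at 106, 125 and 140 CPM and at 146, 177 and 330 CPM (0.69, SE 0.19, p-adj = 0.106). SDHD was at 232, 238 and 257 CPM and at 263, 273 and 394 CPM, a narrower gap (0.30, SE 0.12, p-adj = 0.203). Groups of 2 further members with low p-values overlapped by Sal-exposed heart 5 alone, and these were COX5B (0.72, SE 0.18, p-adj = 0.0905) and NDUFV3 (0.49, SE 0.14, p-adj = 0.123).

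Sal-exposed hearts differed among themselves more than the controls did. In Sal-exposed heart 3, 51 of the 55 members were above all 6 control hearts and 0 were below, and in Sal-exposed heart 2 the numbers were 43 and 4. In Sal-exposed heart 4, with the highest mitochondrial share, 7 were above and 39 below, and in Sal-exposed heart 1, 17 above and 28 below. The same shares over all genes tested were 22% above and 23.3% below for heart 3, 28.4 and 33.7% for heart 2, 27.8 and 31.3% for heart 4, and 26.5 and 29.7% for heart 1. In both hearts 1 and 4, 28 members were below all controls, among them NDUFC2, COX7A2, ATP5MC1, COX5A and ATP5PF, and 7 were above: COX5B, COX6A1, NDUFA12, NDUFA4, NDUFB4, NDUFV3 and SDHD. How many of all genes were below or above in both hearts was not counted, so these numbers do not mark the members out. The gap was wide for NDUFC2, an accessory subunit of complex I named here after its values were seen, which was at 24 and 11.9 CPM in hearts 1 and 4, between 47 and 98.7 CPM in the other 4 exposed hearts and between 59.3 and 81.2 CPM in controls.

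These libraries bear on the counts. Without Sal-exposed hearts 1 and 4, 0 members passed by edgeR (0.232% of all genes did), 37 of 55 had an unadjusted p below 0.05 and a higher level after Sal (10.9% of all genes), 50 were positive, and the median was 0.37. With the mitochondrial share as a covariate the median was 0.42. Without Sal-exposed heart 3, the heart low in W-linked RNA, 2 members passed, NDUFA12 and NDUFA4 (1.99% of all genes), 34 were positive and the median was 0.13. At an unadjusted p below 0.05, 11 members were then higher and 5 lower (11.6 and 8.86% of all genes), so that the count of 12 higher and 0 lower did not hold without that library. Members on and off the Z chromosome moved with that library. Off it, NDUFC2 had a log2FC of -0.48 with heart 3 and -0.79 without it, and ATP5MC1 -0.44 and -0.70. The Z-linked members were ATP5F1AZ, NDUFS4 and COX7C. ATP5F1AZ was at 2551 CPM in Sal-exposed heart 3 and 439 to 1183 CPM in the other exposed hearts, with ATP5A1W at 4.95 CPM in heart 3. Its log2FC was 0.27 (SE 0.34) with heart 3 and -0.16 without it, that of NDUFS4, a complex I subunit, was 0.39 and 0.11, and that of COX7C 0.04 and -0.48. None of these passed in either fit.

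**Figure D3:**
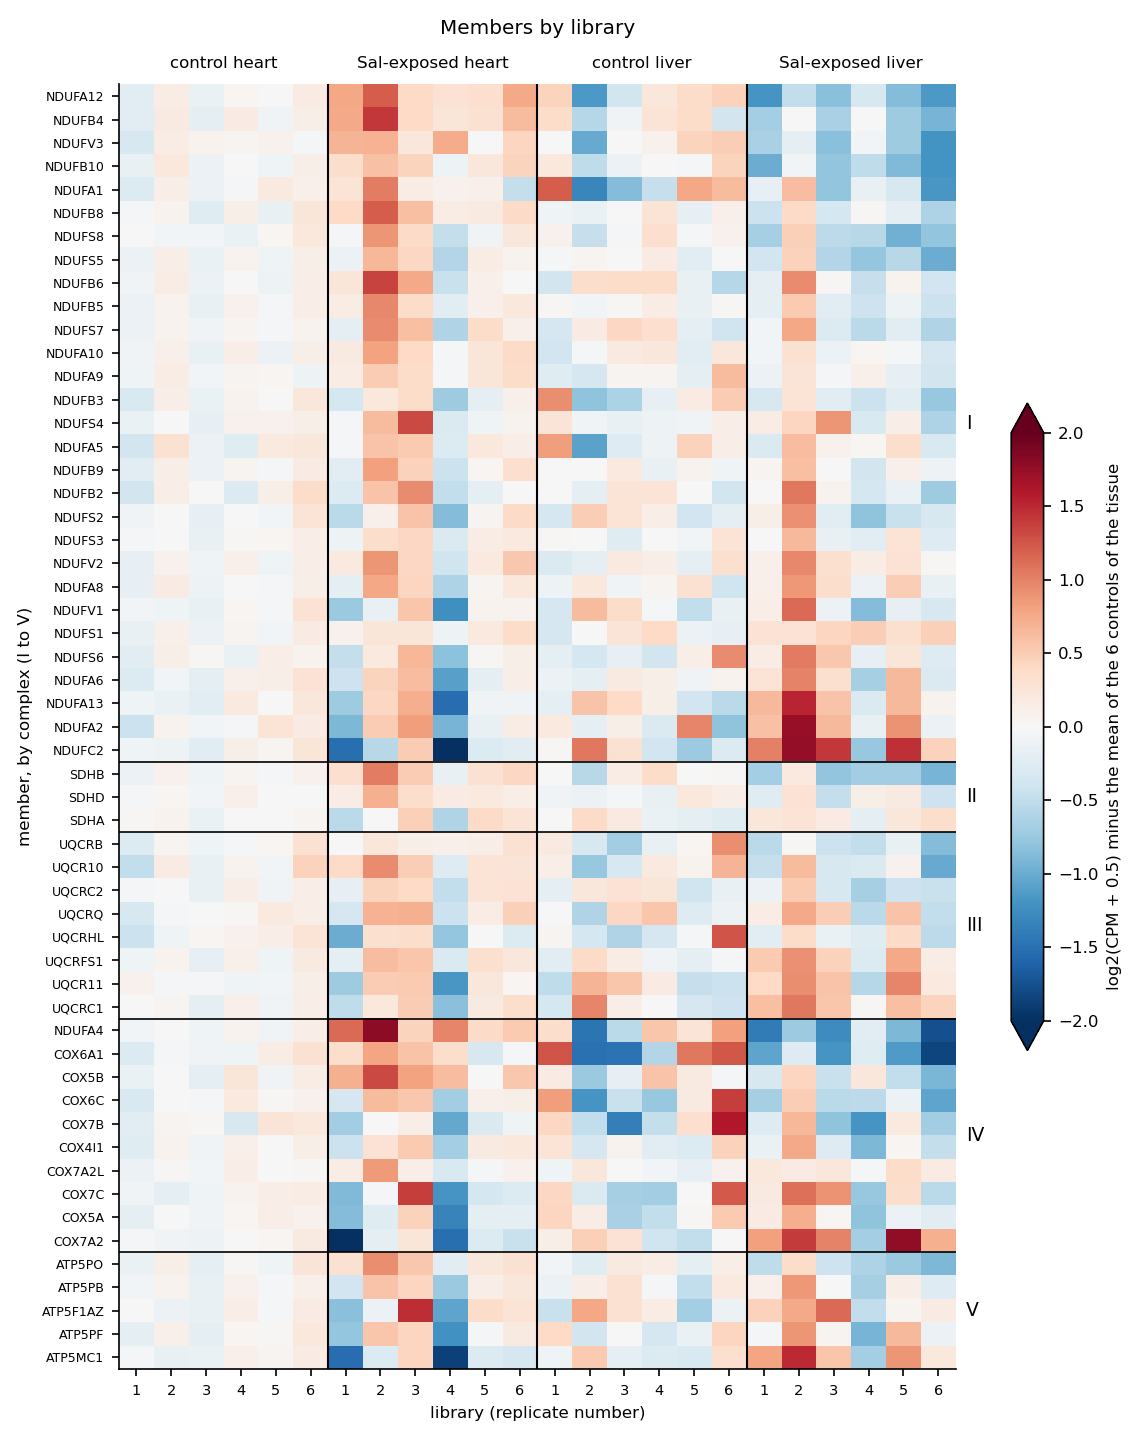
Level of every member in every library as log2(CPM + 0.5) minus the mean of the 6 controls of the same tissue (red higher, blue lower), with members grouped by complex and libraries by group and replicate number. Sal-exposed hearts 2 and 3 are red over most members, with 43 and 51 of 55 above all control hearts, Sal-exposed heart 4 has 39 below all control hearts, and NDUFA4, NDUFA12 and NDUFB4 are red throughout the Sal-exposed hearts.

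In liver, 3 members passed and all 3 were lower after Sal, NDUFA12, NDUFB10 and NDUFA4 (5.45% of members, where 7.84% of all 13587 genes were lower, 7.57% higher and 15.4% passed in either direction). So the share of members that passed was below that of all genes. With DESeq2 6 passed, 5 lower and 1 higher (10.9%, against 20.4%). Under surrogate variables, edgeR passed 2 members lower, NDUFA12 and NDUFB10 (12% of all genes), and 2 higher, COX7A2 and NDUFC2 (16.2%). NDUFA4 did not pass in that fit. The median log2FC was -0.09, against -0.01 for all genes, and 30 of 55 were negative (50.7% of all genes). By complex it was -0.06 for I, -0.13 for II, -0.06 for III, -0.23 for IV and 0.10 for V. For the 11 rows with older symbols of ATP synthase genes the median was -0.29, so the positive value of complex V rests on its 5 rows. No member had groups without overlap (0 of 55, against 3.8% of all genes higher and 1.94% lower).

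NDUFA4 was at 76.9, 263 and 376 CPM in control livers and 62.6, 101 and 183 CPM in Sal-exposed livers. Control livers 2 and 3, which had the lowest mitochondrial shares of the controls (5.21 and 9.68%), lay within the exposed range, and the log2FC was -1.21 (SE 0.36, p-adj = 0.0381). NDUFA12 was at 22.2, 61.4 and 68.4 CPM in controls and 21.6, 27.2 and 39.5 CPM after Sal (-0.96, SE 0.27, p-adj = 0.0308), and again control livers 2 and 3 were the overlapping ones. NDUFB10, an accessory subunit of the membrane arm of complex I, was at 121, 169 and 235 CPM and at 75, 96.1 and 166 CPM (-0.78, SE 0.23, p-adj = 0.0345). NDUFA4 alone also fell by a log2FC of at least 1, as did 3.67% of all genes.

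Next in order of p were COX7A2, SDHB and COX6A1. COX7A2 was at 9.01, 13.4 and 18 CPM in control livers and 7.83, 24.5 and 45.1 CPM after Sal (log2FC 0.94, SE 0.32, p-adj = 0.0614). Of the exposed livers, 5 were above every control, and Sal-exposed liver 4 was the lowest of all 12. SDHB was at 83, 124 and 158 CPM and at 63.6, 75.1 and 140 CPM (-0.63, SE 0.22, p-adj = 0.0626), where Sal-exposed liver 2 was the high value. COX6A1, in mammals the form of subunit VIa outside muscle, split the control livers, with 105 to 120 CPM in control livers 1, 5 and 6 and at most 33.3 CPM in control livers 2, 3 and 4, and 13.6 to 42.5 CPM after Sal (-1.40, SE 0.51, p-adj = 0.0767).

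The 3 liver calls were not stable. Leaving out single libraries gave between 0 and 8 members, with 0 members without Sal-exposed liver 1, 3, 5 or 6 or control liver 1, 4, 5 or 6, 7 without Sal-exposed liver 2, 6 without Sal-exposed liver 4, 4 without control liver 3 and 8 without control liver 2. Without Sal-exposed liver 4 the 6 were ATP5MC1, COX7A2 and NDUFC2, higher, and NDUFA12, NDUFA4 and NDUFB10, lower (13.8% of all genes passed). Without Sal-exposed liver 3, the library low in W-linked RNA, no member passed by edgeR, where 8.88% of all genes did. At an unadjusted p below 0.05, 2 members were then higher and 6 lower (14.1 and 13.1% of all genes). With the mitochondrial share as a covariate 0 passed, and the log2FC of NDUFA4 was -0.64 (p-adj = 0.0575). For the other fits without 1 library no share of all genes was counted, so their counts do not mark the members out.

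The members as a share of nuclear counts gave another picture of liver than the scaled fold changes. This share was 0.475% ± 0.058 (SD, n = 6) in control and 0.618% ± 0.127 in Sal-exposed livers, and 2.49% ± 0.155 in control and 2.68% ± 0.560 in Sal-exposed hearts. In liver, complexes I, II, III and V had higher mean shares after Sal, with 0.221 and 0.288% for complex I, and complex IV had 0.0734 and 0.0742%. The share sums the members and is taken over all nuclear counts, among them the hepatocyte markers given above. The log2FC rest on TMM scaling, and their median weighs all members alike. TMM factors over the 24 libraries were 0.925 to 1.42 in Sal-exposed livers and 0.713 to 1.17 in control livers. In complex II the share was 0.0389% in control and 0.0490% in Sal-exposed livers, though 2 of its 3 members had a negative log2FC. The direction in liver thus differed between these scalings, and which holds was not tested.

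A further comparison was the difference between the tissues in their response. In 10 of 55 members the response in liver differed from that in heart (18.2%, where 16.2% of 14632 genes passed). The fit took all libraries as independent, although the birds gave both tissues, since no label ties a heart to a liver. A block on the replicate number within each exposure group gave 13 members, with no share of all genes counted beside it. Of the 10, 9 were lower in liver relative to heart, or 16.4% against 7.21% of all genes, and 1 was higher, or 1.82% against 9.01%. As a mean share of nuclear counts, the members went from 2.49 to 2.68% in heart and from 0.475 to 0.618% in liver after Sal. The fits rest on TMM scaling, and scaling to nuclear counts was not tried for this difference. Side by side, 26 members had a positive estimate in heart and a negative estimate in liver (47.3%, against 27.7% of all genes), and 6 had the reverse (10.9%, against 30.1%). Complex I contributed 4 of the 10 (NDUFA12, NDUFB10, NDUFB4, NDUFV3), all of them among its 22 accessory subunits, with 0 of the 7 core subunits. With 7 core subunits and 16.2% of all genes passing, this does not set core and accessory subunits apart. Complex II contributed SDHB, complex IV NDUFA4, COX5B, COX6A1 and COX7A2, complex V ATP5PO, and complex III none of its 8 members (by edgeR, with 1 of 8 at an unadjusted p below 0.05 and 0 by DESeq2).

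NDUFA12, on chr1:45360098-45367798 of the GRCg7b assembly, and NDUFA4, on chr2:25916124-25919999, had the smallest p-values. The responses of NDUFA12, positive in heart and negative in liver as given above, differed by a log2FC of -1.55 (SE 0.32, p-adj = 0.00257), and those of NDUFA4 by -2.10 (SE 0.44, p-adj = 0.0028), the largest difference among the members. NDUFB10 (chr14:6143547-6145785) was at 203, 219 and 259 CPM in control hearts and 209, 295 and 336 CPM in Sal-exposed hearts, opposite in sign to liver, and its difference was -1.05 (SE 0.25, p-adj = 0.007). NDUFB4 (chr1:79865890-79876547) was in liver at 53.9, 87.2 and 104 CPM in controls and 42.2, 50.5 and 80.6 CPM after Sal, with a difference between tissues of -1.18 (SE 0.30, p-adj = 0.00968). NDUFV3 (chr1:109677271-109685182), a low member, was at 14.8, 19.5 and 20.7 CPM in control hearts and 18.5, 27.7 and 31.5 CPM in exposed hearts, and at 10.3, 22.1 and 30.2 CPM in control livers and 9.05, 13.2 and 20.5 CPM in exposed livers (difference -1.14, SE 0.30, p-adj = 0.013). All 4 complex I members thus had the same order, above control in heart and below it in liver.

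SDHB (chr21:190111-198536) was at 304, 332 and 350 CPM in control hearts and 298, 427 and 668 CPM in exposed hearts, with Sal-exposed heart 4 below all controls and the other 5 above them. Its response differed by -1.02 (SE 0.27, p-adj = 0.0137). The other complex II members did not pass, with 0.12 (SE 0.25, p-adj = 0.798) for SDHA and -0.36 (SE 0.20, p-adj = 0.233) for SDHD. The row matched to SDHC by position had a difference of -1.68 (SE 0.37, p-adj = 0.00362), from 85.1 to 115 CPM in control and 114 to 259 CPM in exposed hearts and 57.6 to 207 CPM in control and 46.7 to 122 CPM in exposed livers.

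In complex IV, COX5B (chr22:3317097-3318386), a matrix-side subunit, was at 174, 191 and 232 CPM in control hearts and 198, 313 and 495 CPM in exposed hearts, while the livers overlapped almost fully at 72.2, 127 and 178 CPM and 63.8, 92.8 and 163 CPM (difference -0.95, SE 0.32, p-adj = 0.0458). COX6A1 (chr15:9301678-9303021) had a difference of -1.63 (SE 0.56, p-adj = 0.0475). COX7A2 (chr3:80478901-80488192) went the other way, at 24.2, 25.5 and 29.3 CPM in control hearts and 6.01, 20.1 and 30.7 CPM in exposed hearts, with a difference of 1.51 (SE 0.46, p-adj = 0.0284). Its lowest exposed hearts were hearts 1 and 4, at 6.01 and 8.82 CPM, and its lowest liver was Sal-exposed liver 4, the 3 libraries with the high mitochondrial shares. COX4I1 (-0.17, SE 0.33), COX7A2L (-0.00, SE 0.20) and COX7B (-0.24, SE 0.52) did not pass, with p-adj of 0.777, 1 and 0.803.

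ATP5PO (chr1:105675761-105683149), which joins the peripheral stalk of ATP synthase to its head, was at 355, 394 and 482 CPM in control hearts and 345, 499 and 763 CPM in exposed hearts, and at 143, 175 and 192 CPM in control livers and 90.2, 114 and 218 CPM in exposed livers. The difference was -0.80 (SE 0.28, p-adj = 0.0497). ATP5MC1 had 1.10 (SE 0.44, p-adj = 0.0901). Among the 11 rows under older symbols, 2 passed, near the 16.2% of all genes, both lower in liver relative to heart, ATP5C1 (the gamma subunit, -0.66, SE 0.20, p-adj = 0.0281) and ATP5H (a stalk subunit, -0.93, SE 0.30, p-adj = 0.0375). The median difference of the 11 was -0.42.

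Of the 10 members, NDUFA12, NDUFA4, NDUFB10, NDUFB4 and SDHB passed in all 24 fits that left out a library and in all 8 other alternatives. NDUFV3 passed in 24 of 24 and 7 of 8, and COX7A2 in 23 of 24 and 8 of 8. Surrogate variables and the mitochondrial share as a covariate, which changed the liver calls, were not tried for this difference between tissues. Scaling to nuclear counts without TMM was not tried either. COX5B, COX6A1 and ATP5PO passed in 8, 6 and 4 of 24. Without Sal-exposed hearts 1 and 4 and liver 4, 11 members passed (14% of all genes), without Sal-exposed heart 3 and liver 3, 9 passed (12.1%), and without all 5 libraries 8 passed: ATP5MC1, COX7A2, NDUFA12, NDUFA4, NDUFB10, NDUFB4, NDUFC2 and SDHB. The count was 6 without Sal-exposed liver 5. No share of all genes was counted for that fit or for the fit without all 5 libraries, so these counts do not mark the members out.

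**Figure D4:**
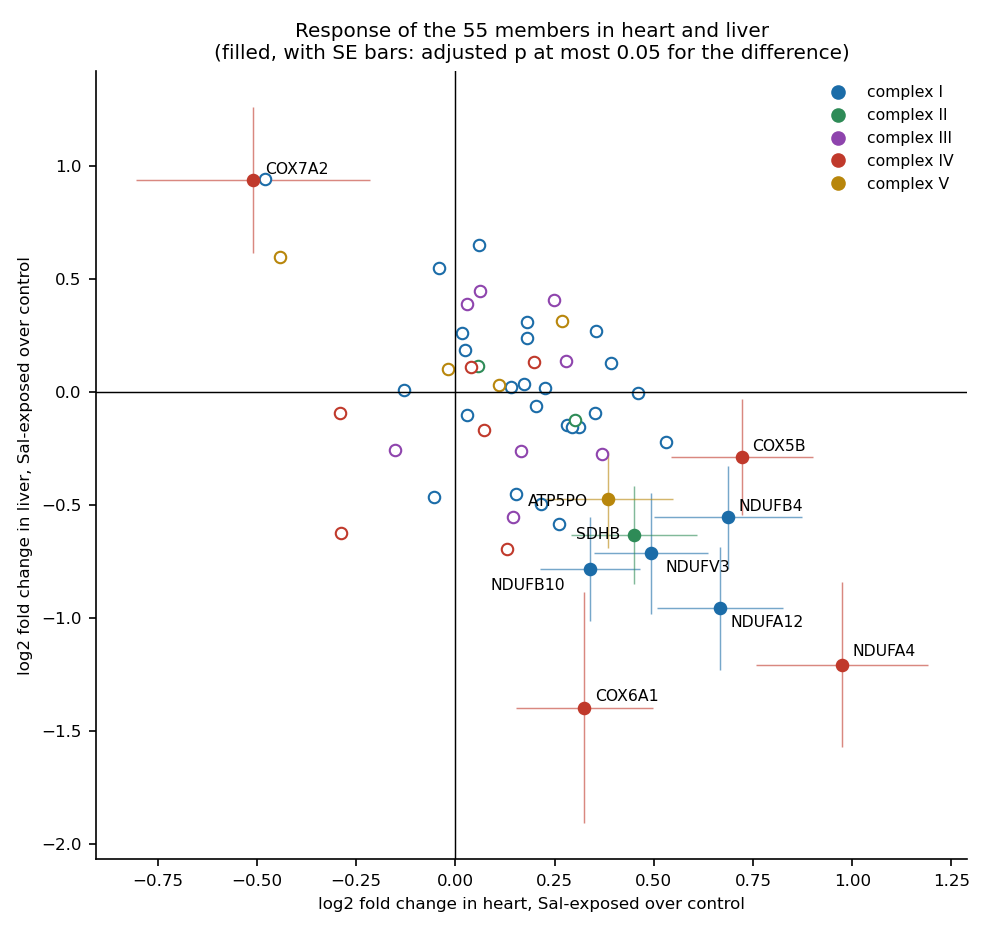
Log2 fold change of each member in heart (x axis) and in liver (y axis), Sal-exposed over control, coloured by complex. Filled points with SE bars are the 10 members whose responses differed between the tissues, of which 9 lie at the lower right, positive in heart and negative in liver, and COX7A2 lies at the upper left.

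**Figure D5:**
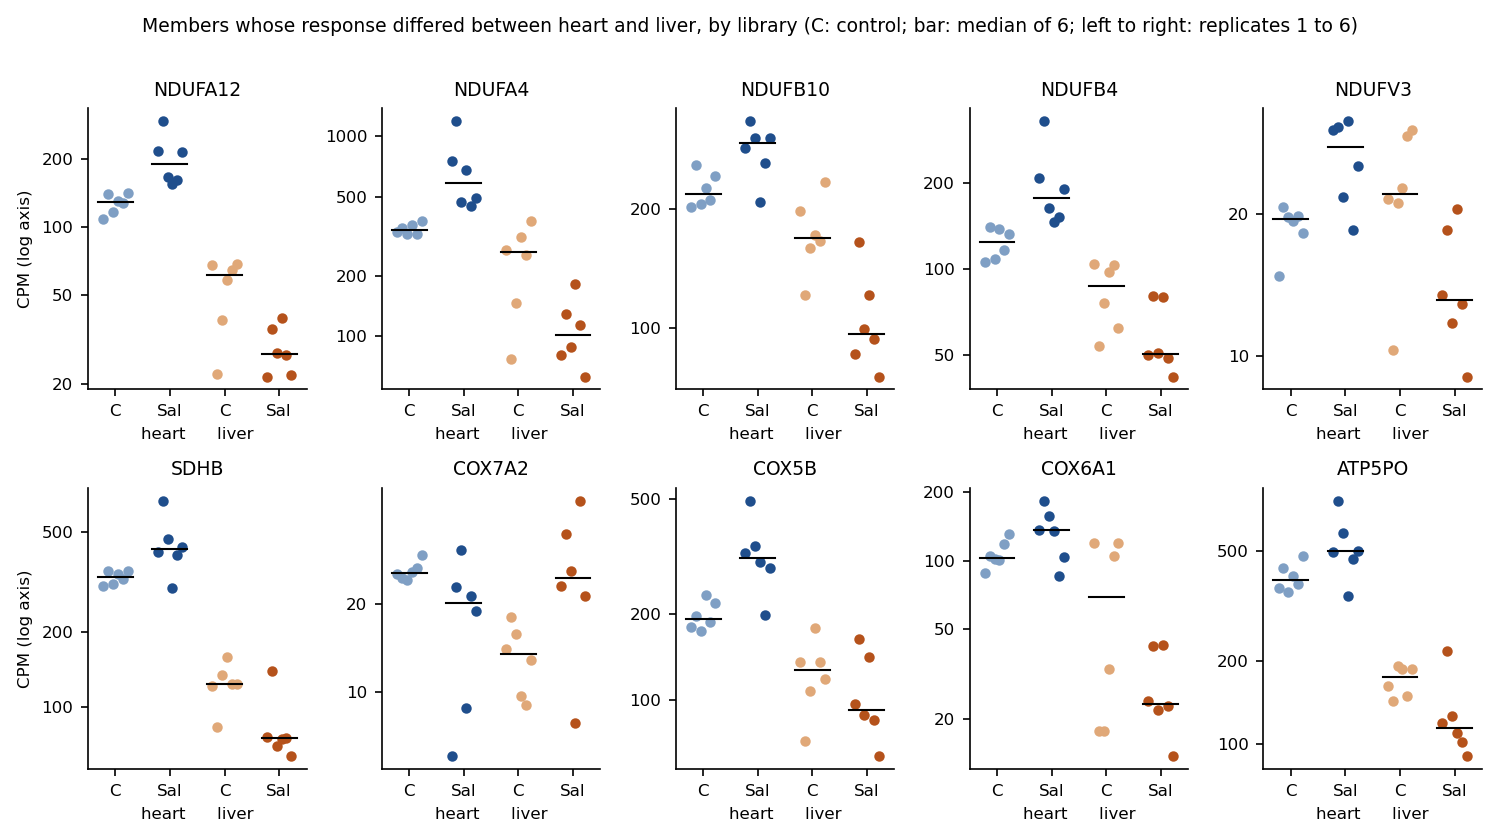
Level in CPM (log axis) by library of the 10 members whose responses differed between the tissues, with control (C) and Sal-exposed (Sal) hearts and livers side by side and bars at the medians of 6. For NDUFA4 all Sal-exposed hearts, from 449 to 1195 CPM, lie above all control hearts, while in liver the groups overlap through control livers 2 and 3.

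The 13 protein-coding genes of the mitochondrial genome, which supply the other subunits of complexes I, III, IV and V, were set beside the members. In heart their median log2FC was 1.28, with 13 of 13 positive, and 0 passed by edgeR. Of the 13, 10 had an unadjusted p below 0.05 (17.2% of all genes) and 6 passed by DESeq2 (4.64%). In liver the median was -1.14, and again 0 passed. Here 4 had an unadjusted p below 0.05 (31.5% of all genes) and 2 passed by DESeq2 (20.4%), near the shares of all genes. The responses differed between tissues in 5 of the 13, all lower in liver relative to heart, where 16.2% of all genes passed and 7.21% were lower: ND1, COX2, COX3, ATP6 and ATP8, the last with a log2FC of -3.66 (SE 1.01, p-adj = 0.0158). ATP8 lay between 29.1 and 769 CPM in control livers. Mitochondrial protein-coding counts per count on the members had a median of 27.1 in control hearts (23.3 to 36) and 31.8 in Sal-exposed hearts (21.5 to 202), where hearts 1 and 4 had 113 and 202. In liver the medians were 52.9 in controls (9.65 to 72.1) and 14.4 after Sal (12.6 to 92.7), the highest being Sal-exposed liver 4.

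Other genes of the pathway were read from lists, against which stand the 15.4% of all genes that passed in liver (7.84% of all genes were lower) and the 0.185% that passed in heart. At an unadjusted p below 0.05 the shares of all genes were 17.2% in heart and 31.5% in liver. By DESeq2 they were 4.64 and 20.4%. Of 16 complex I assembly factors, 0 passed in heart (3 with an unadjusted p below 0.05, 1 by DESeq2) and 1 in liver, NDUFAF7, a methyltransferase, at 13.1 to 21.5 CPM in control and 10.5 to 17 CPM in exposed livers (log2FC -0.58, SE 0.18, p-adj = 0.044). Of 4 complex III factors, 0 passed in heart (1 with an unadjusted p below 0.05, 1 by DESeq2) and 1 in liver. This was TTC19, which acts on the Rieske protein during assembly, at 22.7 to 32.9 CPM in controls and 14.8 to 20.9 CPM after Sal without overlap (-0.77, SE 0.15, p-adj = 0.00791). Its response differed between tissues (-1.13, SE 0.17, p-adj = 0.000431), since in heart it was at 13.3 to 18.7 CPM and 19.3 to 24.6 CPM, also without overlap (0.43, SE 0.11, p-adj = 0.0917). Of 21 complex IV factors, 0 passed in heart (4 with an unadjusted p below 0.05, 1 by DESeq2) and 2 in liver, both lower, COX20 (-0.83, SE 0.23, p-adj = 0.0295), a chaperone of the mitochondrially encoded COX2, and the copper chaperone SCO2 (-0.61, SE 0.19, p-adj = 0.0444). None of 2 complex II factors, 5 complex V factors or 17 genes of ubiquinone synthesis and electron carriers passed in either tissue by edgeR (in heart 1, 2 and 2 had an unadjusted p below 0.05 and 1, 1 and 0 passed by DESeq2; in liver 0, 0 and 2, and 0, 0 and 1).

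Of 15 regulators of mitochondrial biogenesis, 3 rose in liver and 0 fell, where 7.57% of all genes rose and 15.4% passed in either direction, and 0 passed in heart (2 with an unadjusted p below 0.05, 1 by DESeq2). GABPA and GABPB1 encode the subunits of nuclear respiratory factor 2, which activates many respiratory chain genes. GABPA was at 9.19 to 24.2 CPM in control and 21.7 to 40.4 CPM in exposed livers (log2FC 0.89, SE 0.22, p-adj = 0.0169), and GABPB1 at 9.41 to 15.2 and 13 to 35 CPM (0.80, SE 0.22, p-adj = 0.0275). The nuclear receptor ESRRG was at 2.81 to 6.21 and 4.16 to 11.4 CPM (0.95, SE 0.29, p-adj = 0.0416). Groups overlapped in all 3. The span of the member ATP5PF overlaps those of GABPA and JAM2, and its log2FC in liver was 0.10 (p-adj = 0.84).

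Overlap of this kind concerned 25 of the 55 members, whose spans overlap another gene of the table, and the strand setting of the counting was not given in the sources used here. Among the 10 members named above these were NDUFB10 (with RPL3L and RPS2), NDUFB4 (HGD), NDUFV3 (WDR4), COX7A2 (TMEM30A), COX6A1 (MSI1) and ATP5PO (MRPS6). NDUFA12, NDUFA4, SDHB and COX5B had no overlapping gene.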

How the data were processed

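Trimming (fastp), alignment (STAR, GRCg7b) and gene quantification (RSEM) were done by the authors, who deposited whole-number counts without normalization for 15051 genes. Another 12 columns of that table match no sample here and were not used. The deposited result tables hold the authors' DESeq2 log2 fold changes, standard errors, score (Wald statistic), p-values and adjusted p-values, which were not used, and gene positions, which were. The methods name sva without a number of surrogate variables.

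Tests used edgeR 4.0.16 under R 4.3.3 (TMM, filterByExpr with a minimum count of 10 and total of 15, quasi-likelihood test, Benjamini-Hochberg over all genes tested, passed at an adjusted p of at most 0.05), beside DESeq2 1.42.0 and sva 3.50.0. All 55 members passed the filter. Values are CPM from TMM over 24 libraries. SE is the size of log2FC over the root of F. The heat map adds 0.5 CPM. The fits were also run on simulated data, drawn with the same spread per gene in both groups. Sal-exposed hearts spread more than controls, so that run cannot show how the fits behave there. Replicates are separate birds. No 2 libraries agreed within counting noise (276 pairs compared, chi-square over its degrees of freedom at least 13.1).

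Members, lists, tests and alternatives were chosen with earlier results of these data known. Named were members past the threshold, the 5 with the lowest p where fewer than 5 passed, isoform groups, SDH genes, the 3 highest and 3 lowest by tissue in each complex, and at most 10 genes of other lists. Rows without a symbol were matched by position to SDHC, NDUFA11 and COX8A. Sequences were not used here.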

Additional observations from a re-analysis of the deposited data

Results flagged for a closer look

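Responses to Sal that differed between the tissues by the interaction of tissue and exposure (edgeR, adjusted over all genes tested) were found for 10 members. The log2FC of the difference, liver response minus heart response, was -2.10 for NDUFA4, -1.63 for COX6A1, -1.55 for NDUFA12, -1.18 for NDUFB4, -1.14 for NDUFV3, -1.05 for NDUFB10, -1.02 for SDHB, -0.95 for COX5B, -0.80 for ATP5PO and 1.51 for COX7A2.

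Dixon's test at the 95% level marked a library far from the others of its group in 11 of 108 groups of values. Each marked value was the highest of its group. The nominal rate of 1 in 20 holds for independent, normally distributed values. These groups share libraries, and their distribution was not checked, so the count does not show an excess over chance. Sal-exposed heart 2 stood high for COX7A2L (78.7 CPM, others 35.3 to 48.7), NDUFB4 (330 CPM, others 146 to 209) and SDHD (394 CPM, others 263 to 308). Sal-exposed liver 2, which bears the same number, stood high for ATP5PO (218 CPM, others 90.2 to 126) and SDHB (140 CPM, others 63.6 to 76.3). Sal-exposed liver 4 stood high for the share of counts on mitochondrial genes (30.4%, others 6.92 to 10.9%) and for mitochondrial protein-coding counts per member count (92.7, others 12.6 to 14.5). Control liver 6 stood high for COX7B (41.8 CPM, others 4.92 to 18.1), NDUFS6 (29.5 CPM, others 11.6 to 16.5) and UQCRHL (88.2 CPM, others below 38.1), and control liver 2 for UQCRC1 (220 CPM, others 82.7 to 122).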

How the results depend on the processing

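Between control heart and liver, 47 to 51 of the 55 members passed when single libraries were left out. Of the 48, 47 passed in each of those fits, UQCRHL being lost without control heart 2, while COX6C, NDUFA4, NDUFB10 or NDUFV3 were gained without control livers 1, 2 or 6. NDUFV3, lower in heart, was gained without control liver 2. In heart, 5 members passed with DESeq2 (all higher) and 12 with surrogate variables (9 higher, 3 lower), against 0, and leaving out single libraries gave 0 to 2 (2 without Sal-exposed heart 3, 1 without Sal-exposed heart 5). In liver, the 3 members became 6 with DESeq2, 7 with all libraries in a single fit, 1 with a log2FC of at least 1 in size, 0 with the mitochondrial share as a covariate and 1 without Sal-exposed livers 3 and 4, and 0 to 8 when single libraries were left out. Surrogate variables in liver gave 2 members lower and 2 higher, without NDUFA4. For the difference between tissues, single libraries left out gave 6 to 13. Some signs reversed. In heart ATP5MC1, at -0.44, was 0.0719 with the mitochondrial share as a covariate, and single libraries left out gave -0.0308 to 0.188 for COX4I1 and -0.0384 to 0.162 for SDHA. In liver COX4I1 was 0.0268 without livers 3 and 4. For the difference between tissues, COX7A2L was 0.0159 with upper-quartile scaling, 0.000739 without a filter and 0.0440 with the replicate number as a block, SDHA was -0.0648 without Sal-exposed hearts 1 and 4 and liver 4, and single libraries left out gave -0.0933 to 0.174 for COX7A2L and -0.510 to 0.271 for COX7B, at -0.24 with all libraries. The causes were not tested. Where no share of all genes is given above for a fit, none was counted, so a change in its count does not mark the members out. The mitochondrial covariate, the joint omissions and the rows added by older symbol or position were chosen after seeing the data.

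With the replicate number as a block, 0 members passed in heart, 0 in liver, 49 between control tissues and 13 for the difference between tissues, with no shares of all genes counted. The numbers are not stated to pair samples. Same-numbered deviations correlated at -0.21 to 0.07 between exposed and control hearts, -0.07 to 0.17 between livers and -0.04 to 0.23 between control heart and liver. Between Sal-exposed heart and liver they correlated at -0.11 to 0.45, 5 of 6 best with their own number, and heart 3 and liver 3 were both low in W-linked RNA. The birds gave both tissues, but which heart and liver share a bird is not stated, so that the match of numbers is a hint from the data.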

Other observations

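Sal-exposed heart 2 and Sal-exposed liver 2 both stood high across the members. In heart 2, 43 of 55 members were above all 6 control hearts, and in liver 2, 33 of 55 were above all 6 control livers and 0 were below, where 16.1% of all genes tested were above and 11.2% below. Above the controls in both libraries were 27 members, among them NDUFB8, NDUFS8, UQCRC1, COX4I1 and ATP5PO. Sal-exposed liver 6 had 2 members above and 24 below all controls (25.7 and 17.5% of all genes). Sal-exposed liver 4 had 1 and 23 (24.9 and 19.2% of all genes). Of the 28 members below all controls in Sal-exposed hearts 1 and 4, 22 were lowest of the 6 Sal-exposed livers in liver 4, and of all 55 members 24 were. These library patterns were noticed after the values were seen. The 27 members above in both libraries, and the 22 and 24 lowest in liver 4, have no share of all genes beside them, since it was not counted.

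At 6 libraries a group, the standard error of a member's log2FC was 0.109 to 0.351 in heart and 0.129 to 0.511 in liver, so that a p-adj above the threshold does not show that a level was the same.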
